A study of Homo sapiens with 6 samples.

Results

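The genes described here are the core of the Hippo, YAP and TEAD pathway and its best known targets, measured by RNA-seq in HepG2 cells, an established human liver cancer line. They are the 10 of 59608 genes of the count table called YAP1, WWTR1, TEAD1, CCN1 (CYR61), CCN2 (CTGF), ANKRD1, AMOTL2, AXL, LATS2 and AJUBA. The list was made by name with earlier results of these data known, and all 10 had enough counts to be tested. In every library endogenous VEZF1, a zinc finger transcription factor, had been silenced with a lentivirus-encoded sgRNA. Then either the wild-type protein (VEZF1-WT, 3 libraries) or VEZF1-2A (3 libraries) had been re-expressed. In VEZF1-2A some of the sites reported as potential carriers of O-GlcNAc, all of them serines, were replaced by alanine. The comparison asks whether the levels of these mRNAs depended on the form of VEZF1 that the cells carried. The labels give no age of the cultures and do not say whether the cells were a clone or a pool, or whether the 3 libraries of a group came from separate cultures, so p-values measure the spread between these libraries, which may be technical. No library of cells with silenced VEZF1 and no re-expression was analysed here.

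In the Hippo pathway the kinases MST1 and MST2 (genes STK4 and STK3) activate LATS1 and LATS2, which phosphorylate the coactivators YAP and TAZ (gene WWTR1) and keep them in the cytoplasm. When the kinases are inactive, YAP and TAZ enter the nucleus and bind TEAD factors on DNA, and genes such as CCN1, CCN2 and ANKRD1 are transcribed. The pathway limits liver size, and its output is often raised in liver cancer. Much of this control acts on the phosphorylation and location of the proteins, which mRNA counts do not measure.

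TEAD factors bind the sequence GGAATG, and the promoters of CCN2 and ANKRD1, textbook targets, and of YAP1 itself are shown to let a reader see where it lies. The sequences are the 250 bases before the transcription start, read 5′ to 3′ on the strand of the gene, from RefSeq on build GRCh38.p14, with every GGAATG in capitals. The CCN2 stretch is chr6:131951373-131951622 (minus strand), that of ANKRD1 is chr10:90921088-90921337 (minus strand) and that of YAP1 is chr11:102110197-102110446 (plus strand). All 3 end at the base before the gene start given in the count table.
CCN2: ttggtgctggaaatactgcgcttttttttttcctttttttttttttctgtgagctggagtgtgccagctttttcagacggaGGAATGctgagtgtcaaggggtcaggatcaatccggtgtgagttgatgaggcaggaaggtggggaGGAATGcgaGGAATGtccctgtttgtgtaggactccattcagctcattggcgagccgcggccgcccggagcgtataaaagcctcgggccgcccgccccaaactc
ANKRD1: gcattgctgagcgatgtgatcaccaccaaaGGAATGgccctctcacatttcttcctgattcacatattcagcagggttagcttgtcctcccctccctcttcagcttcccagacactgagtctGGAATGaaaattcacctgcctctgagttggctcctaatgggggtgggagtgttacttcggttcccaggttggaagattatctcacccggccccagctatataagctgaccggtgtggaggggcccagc
YAP1: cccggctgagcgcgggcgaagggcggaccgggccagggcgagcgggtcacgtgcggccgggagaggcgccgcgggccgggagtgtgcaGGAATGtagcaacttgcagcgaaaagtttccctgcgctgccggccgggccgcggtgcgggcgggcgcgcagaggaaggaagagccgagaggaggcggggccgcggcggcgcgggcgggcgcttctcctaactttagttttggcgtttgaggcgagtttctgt

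CCN2 held 3 copies of GGAATG, from 169 to 164, 104 to 99 and 95 to 90 bases before the start. ANKRD1 held 2, from 220 to 215 and from 128 to 123 bases before it, and YAP1 held 1, from 162 to 157 bases before it. Searched on both strands in all 35116 promoters of this length, GGAATG was present in 11.9%, at least 2 copies in 0.94% and at least 3 copies in 0.0826%. Promoters of 8 of the 10 genes were matched by symbol, 12 in all because several genes have more than 1 start, and CCN1 and TEAD1 were not among them. AMOTL2, AXL and AJUBA held 1 copy each before their second start and none before the first, and WWTR1 and LATS2 held none. A run of 6 G (GGGGGG, both strands), searched as well, was present in 17.6% of all promoters, and among these genes before the second start of WWTR1 (1 copy) and the first of AJUBA (2 copies). These matches describe letters in a window and are not measurements of binding.

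The libraries held between 28756765 and 57199396 counts, and levels are given as CPM, counts divided by the library size after TMM scaling. Hepatocyte mRNAs were abundant, with a summed level of 8 markers from 14095 to 18734 CPM and albumin (ALB) from 2813 to 3672 CPM. A list of 6 fibroblast markers summed to 1.71 to 3.47 CPM, with LUM at 0 counts in every library, and 4 endothelial markers to 2.14 to 4.35 CPM. Of 4 leukocyte markers, CD68 reached 112 to 185 CPM, while PTPRC and CD3E had 16 and 2 counts in all 6 libraries together. Replicate 3 of VEZF1-WT and replicate 3 of VEZF1-2A stood apart from the others in the same way. Of the 19111 genes tested, 15.3% were lowest and 15.4% highest in this pair. AFP, a fetal liver protein, was 3643 and 3482 CPM in them and 1763 to 2065 CPM in the other 4. VEZF1 itself was 59.3, 45.6 and 40.0 CPM with VEZF1-WT and 46.2, 48.6 and 38.9 CPM with VEZF1-2A. The groups overlapped, with a log2 fold change of 0.12 (SE 0.13, edgeR unadjusted p = 0.407), and the counts do not separate the silenced gene from the re-expressed one.

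No change between VEZF1-WT and VEZF1-2A was detected in any of the 10 genes. With edgeR's quasi-likelihood test and Benjamini-Hochberg adjustment over all 19111 genes, 0 of 10 passed an adjusted p of 0.05, where 0.0% of all genes did, and each had an adjusted p of 0.9996. At an unadjusted p under 0.05 the count was 0 of 10, against 2.13% of all genes (408), and the groups of libraries separated for 0 of 10, against 7.35% of all genes. The median log2 fold change, VEZF1-WT over VEZF1-2A, was -0.01 over the 10 genes and 0.00 over all genes, with 5 of the 10 above and 5 below 0. DESeq2's test called 3 genes of the whole table and limma voom 0, and neither called any of the 10. The intervals show what sizes of change the 3 libraries a group can bound. For YAP1 and WWTR1 the 95% interval reached no further than -0.17 on the log2 scale, and for AXL, the widest, it ran from -0.77 to 0.22.

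**Figure D1:**
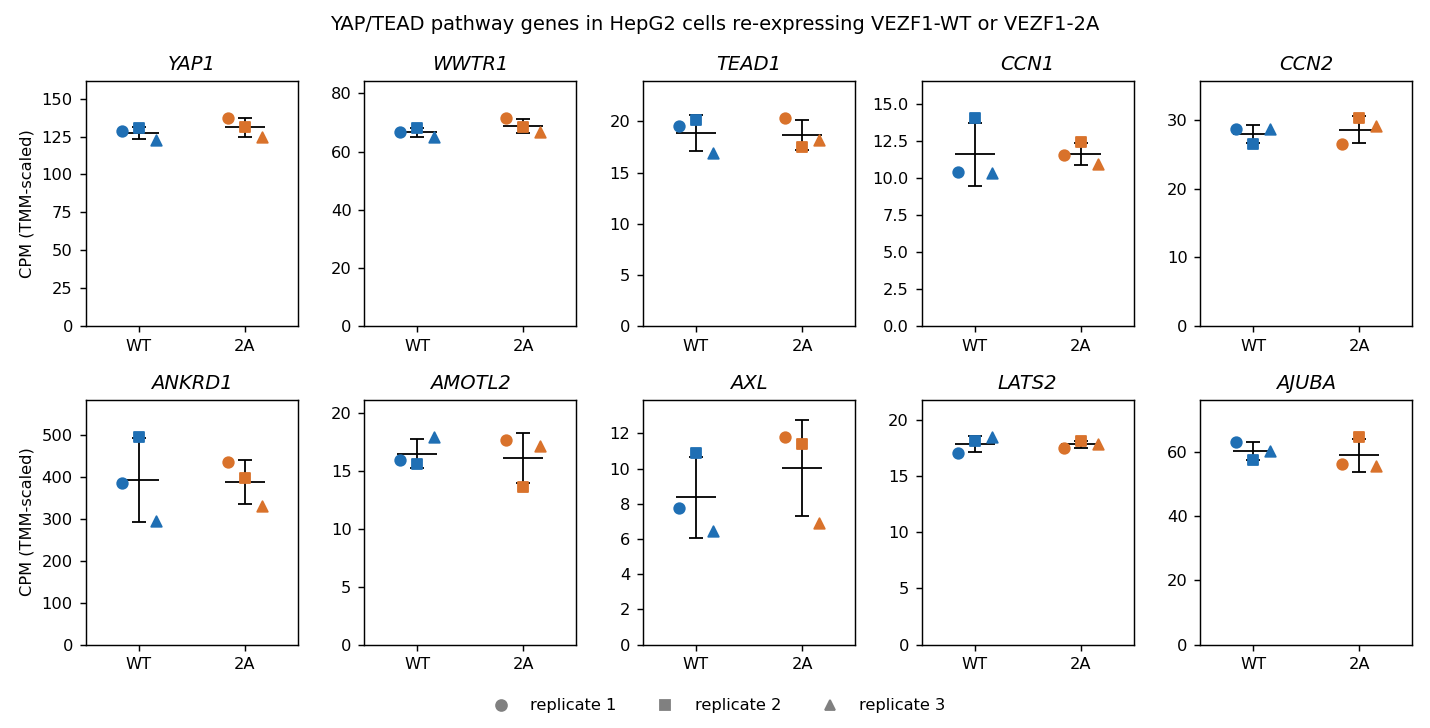
Level of each of the 10 genes in every library, in CPM, with VEZF1-WT and VEZF1-2A libraries as separate points and the group mean and SD beside them. The groups overlap for every gene, and the spread is widest for AXL (6.44 to 11.8 CPM) and ANKRD1 (296 to 496 CPM).

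YAP1 (chromosome 11, 102110447 to 102233424, plus strand, GRCh38) encodes the coactivator that the kinases hold back. Its level was 129, 130.5 and 123 CPM in the VEZF1-WT libraries and 137, 131 and 125 CPM in the VEZF1-2A libraries. The highest library was VEZF1-2A and the lowest VEZF1-WT, with the groups overlapping between. The means were 127 ± 3.93 and 131 ± 6.05 CPM (SD, n = 3 each), which gave a log2 fold change of -0.04 (SE 0.06, 95% interval -0.17 to 0.09, edgeR unadjusted p = 0.488). WWTR1 (chromosome 3, 149517235 to 149736714, minus strand) encodes TAZ, the paralog of YAP. It was 66.6, 68.2 and 64.9 CPM with VEZF1-WT and 71.4, 68.4 and 66.6 CPM with VEZF1-2A, so that here too the VEZF1-2A libraries took the upper end and the groups overlapped. The log2 fold change was -0.05 (SE 0.06, 95% interval -0.17 to 0.08, edgeR unadjusted p = 0.425), from means of 66.6 ± 1.66 and 68.8 ± 2.41 CPM (SD, n = 3).

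TEAD1 (chromosome 11, 12674421 to 12944737, plus strand) encodes 1 of the 4 TEAD factors, the DNA-binding partners of YAP and TAZ. Its level was 19.6, 20.1 and 16.9 CPM with VEZF1-WT and 20.3, 17.5 and 18.2 CPM with VEZF1-2A. The ranges lay almost on top of each other, with a log2 fold change of 0.02 (SE 0.09, 95% interval -0.19 to 0.22, edgeR unadjusted p = 0.859). Per length, TEAD1 was the least abundant of its family, at 9.72% of the summed level per kilobase of the 4 (range over libraries 8.8 to 11.3%), against 26.4% for TEAD2, 28.4% for TEAD3 and 35.5% for TEAD4. This order rests on the length of the gene model, 10700 bases for TEAD1 against 2980, 3049 and 2275 for TEAD2, TEAD3 and TEAD4. In CPM the order was reversed for TEAD1, which was highest of the 4 in every library. TEAD2 was 13.2 to 16.1, TEAD3 14.3 to 17.2 and TEAD4 12.9 to 15.6 CPM. Which transcript forms the cells used was not tested. YAP1 made up 71.7% of the summed level per kilobase of YAP1 and WWTR1, and this share moved only between 71.4 and 71.9% over the 6 libraries.

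The secreted matricellular proteins CCN1 and CCN2 are the targets most often read as YAP output. CCN1 (chromosome 1, 85580761 to 85584589, plus strand) was 10.4, 14.0 and 10.3 CPM with VEZF1-WT and 11.5, 12.4 and 10.9 CPM with VEZF1-2A. All VEZF1-2A libraries fell inside the VEZF1-WT range, which the second library stretched upward. The log2 fold change was -0.01 (SE 0.13, 95% interval -0.30 to 0.27, edgeR unadjusted p = 0.91), and it was -0.17 without that library. CCN2 (chromosome 6, 131948176 to 131951372, minus strand) was 28.8, 26.5 and 28.7 CPM with VEZF1-WT and 26.5, 30.3 and 29.2 CPM with VEZF1-2A. Its lowest library was the second VEZF1-WT library, with the first VEZF1-2A library just above it, and the log2 fold change was -0.03 (SE 0.07, 95% interval -0.20 to 0.13, edgeR unadjusted p = 0.648). CCN1 and CCN2 did not follow each other from library to library, CCN1 being highest in the second VEZF1-WT library, where CCN2 was lowest. CCN2 took 79.5% of the summed level per kilobase of both (range 75.0 to 81.6%).

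ANKRD1 (chromosome 10, 90912096 to 90921087, minus strand) encodes an ankyrin repeat protein known from stressed heart muscle and induced by YAP in many cell types. Its level was 385, 496 and 296 CPM with VEZF1-WT and 437, 397 and 332 CPM with VEZF1-2A. The VEZF1-WT libraries held both the highest and the lowest value, 1.67-fold apart, and enclosed the other group. The means were 392 ± 99.9 and 389 ± 52.7 CPM (SD, n = 3), with a log2 fold change of 0.01 (SE 0.16, 95% interval -0.34 to 0.36, edgeR unadjusted p = 0.943). Which library was left out set its sign, with -0.19 without the second VEZF1-WT library, -0.09 without the third VEZF1-2A library and 0.18 without the third VEZF1-WT library. Its biological coefficient of variation, the spread between libraries of a group beyond counting error, was 14.1%, against 7.49% on the trend for genes of its abundance, a ratio above that of 98.6% of the genes tested.

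AXL (chromosome 19, 41219223 to 41261766, plus strand), a receptor tyrosine kinase, had the largest difference of the 10. It was 7.77, 10.9 and 6.44 CPM with VEZF1-WT and 11.8, 11.4 and 6.88 CPM with VEZF1-2A. Replicate 3 was the lowest of either group, and the groups overlapped. VEZF1-WT averaged 8.39 ± 2.31 CPM (SD, n = 3) and the SD of VEZF1-2A was 2.75 CPM, and the log2 fold change was -0.27 (SE 0.22, 95% interval -0.77 to 0.22, edgeR unadjusted p = 0.252). The value depended on which libraries entered the fit. Fitted by edgeR across all genes, it was -0.32 without replicate 3 of both groups (unadjusted p = 0.0434), -0.48 without the third VEZF1-2A library (unadjusted p = 0.0224) and -0.50 without the second VEZF1-WT library (unadjusted p = 0.0398). It was -0.11, -0.15 and -0.16 without the third VEZF1-WT, the first VEZF1-2A and the second VEZF1-2A library. The sign stayed negative throughout, and the adjusted p was at least 0.9143 under every alternative run.

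AMOTL2 and LATS2 are targets of YAP that act back on it, AMOTL2 as an angiomotin that binds YAP and LATS2 as a kinase that phosphorylates it. AMOTL2 (chromosome 3, 134355874 to 134375479, minus strand) was 15.9, 15.6 and 17.9 CPM with VEZF1-WT and 17.6, 13.6 and 17.1 CPM with VEZF1-2A. The lowest library was the second VEZF1-2A library, the highest the third VEZF1-WT library, and the log2 fold change was 0.04 (SE 0.11, 95% interval -0.21 to 0.28, edgeR unadjusted p = 0.753). LATS2 (chromosome 13, 20973036 to 21061586, minus strand) was the steadiest of the 10, at 17.1, 18.1 and 18.5 CPM with VEZF1-WT and 17.5, 18.1 and 17.9 CPM with VEZF1-2A. Its highest library was 1.08-fold its lowest, and the log2 fold change was 0.00 (SE 0.07, 95% interval -0.16 to 0.16, edgeR unadjusted p = 0.975). Of the summed levels per kilobase, LATS2 took 64.8% of LATS1 and LATS2, and AMOTL2 took 93.8% of the 3 angiomotins.

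AJUBA (chromosome 14, 22971177 to 22982551, minus strand) encodes a LIM protein that binds LATS kinases and restrains them. It was 62.9, 57.3 and 60.3 CPM with VEZF1-WT and 56.2, 64.6 and 55.7 CPM with VEZF1-2A. The second VEZF1-2A library was the highest of all 6 and the other VEZF1-2A libraries were the lowest, so the groups overlapped, with a log2 fold change of 0.03 (SE 0.07, 95% interval -0.13 to 0.19, edgeR unadjusted p = 0.663). Two-sided exact permutation tests of log2(CPM + 0.1) gave p-values from 0.2 for WWTR1 to 1 for TEAD1, CCN1 and ANKRD1, where 3 libraries against 3 cannot go below 0.1. The strand setting of the counting is not given in the sources used here, and 6 of the 10 genes share exon positions with other genes of the table. The largest such overlaps were those of YAP1 with AP001527.2, on the other strand, whose count was 23.6% of that of YAP1, and of AJUBA with AL132780.3, on the same strand, at 23.7%. WWTR1, CCN2, AMOTL2 and AXL shared exon positions with genes at 0.685 to 8.52% of their counts, and TEAD1, CCN1, ANKRD1 and LATS2 shared none.

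Set per length of the gene model, the 10 mRNAs spanned a wide range of levels. ANKRD1 was highest at 218 CPM per kilobase (165 to 277 over 6 libraries), above 98.9% of the genes tested. YAP1 followed at 20.5, CCN2 at 12.1, AJUBA at 10.1 and WWTR1 at 8.1 CPM per kilobase, and the ranges over libraries of neighbours in this order did not overlap. Below them came LATS2 (3.19), CCN1 (3.13), AMOTL2 (2.72), AXL (1.79) and TEAD1 (1.75 CPM per kilobase), each overlapping the next in its range over libraries. WWTR1 and LATS2 did not overlap.

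**Figure D2:**
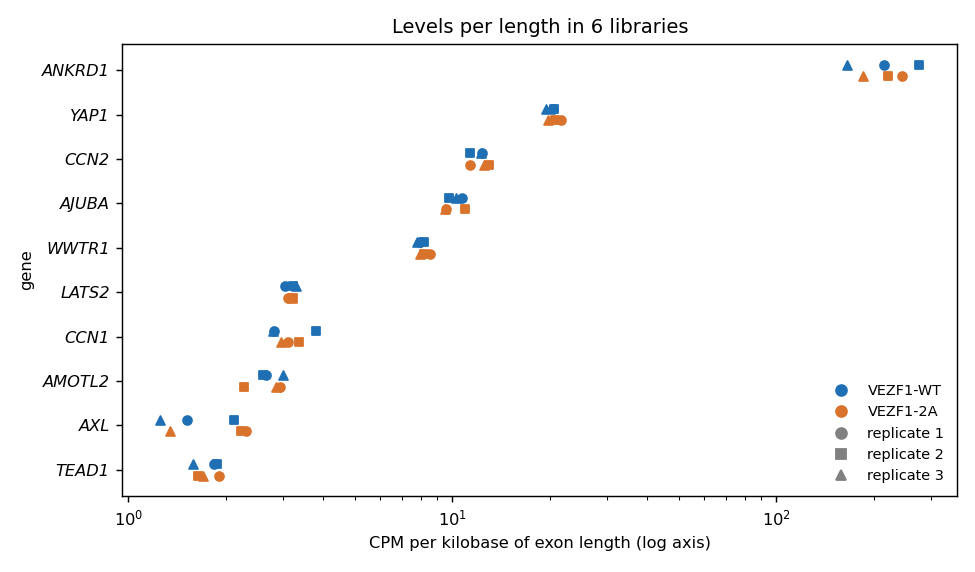
Level per length of each gene, in CPM per kilobase of gene model on a log axis, with 1 point for each of 6 libraries. ANKRD1 stands above the rest at 165 to 277, and among the 5 lowest genes, from LATS2 to TEAD1, each overlaps its neighbour in the order.

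The pattern that 5 of the 10 genes shared across libraries did not follow the form of VEZF1. It was noticed after the values were seen, so it is a description without a test. The summed level of 10 proliferation genes, among them MKI67 and TOP2A, was 1762 to 1853 CPM in replicates 1 and 3 of VEZF1-WT and replicate 3 of VEZF1-2A, and 1434 to 1497 CPM in the other 3. YAP1, WWTR1, CCN1, ANKRD1 and AXL were all lower in each of the libraries with the higher sum than in any other library. That was 5 of 10 genes (50.0%), against 10.1% of all genes tested, and none of the 10 was higher in each of them, against 11.3% of all. In the wider list of pathway genes described further on, 5 of 37 (13.5%) were lower and 2 (5.41%) higher in each of them. For AXL the levels were 6.44 to 7.77 CPM on the higher side and 10.9 to 11.8 CPM on the lower. The sides lay closer for the rest, at 123 to 129 against 130.5 to 137 CPM for YAP1 and 64.9 to 66.6 against 68.2 to 71.4 CPM for WWTR1. CCN1 was 10.3 to 10.9 against 11.5 to 14.0 CPM, and ANKRD1 296 to 385 against 397 to 496 CPM. Since VEZF1-WT holds 2 of these 3 libraries and VEZF1-2A 1, the sum moves with the group as well. Replicate 3 of both groups, the pair that stood apart from the other libraries, also makes up 2 of these 3. Only replicate 1 of VEZF1-WT separates the sum from that pair, so they cannot be fully told apart. YAP1, ANKRD1 and AXL were lowest in that pair too. With the log2 sum as a covariate beside the group, the log2 fold change of AXL was -0.11, of ANKRD1 0.08 and of CCN1 0.04, and 0 of 10 genes passed an unadjusted p of 0.05, where 530 of 19111 genes did. The part of proliferation in these values was not tested further.

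**Figure D3:**
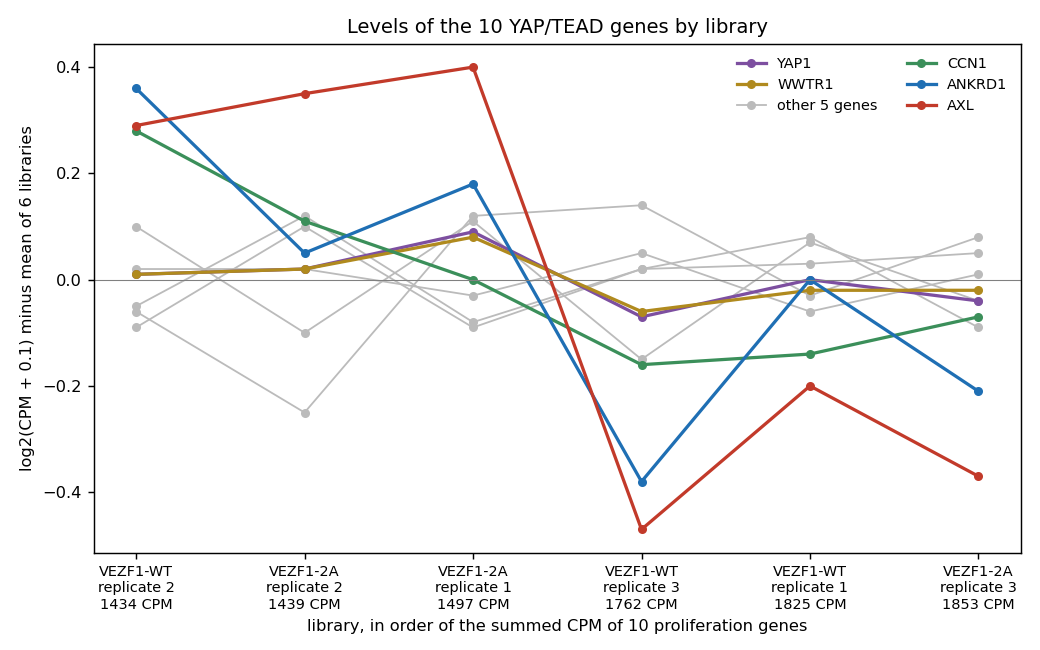
Level of each gene in each library as log2(CPM + 0.1) minus the mean of 6 libraries, with libraries ordered by the summed CPM of 10 proliferation genes, given under each name. The lines of YAP1, WWTR1, CCN1, ANKRD1 and AXL lie lower in the 3 libraries at 1762 to 1853 CPM than in the 3 at 1434 to 1497 CPM, and those of the other 5 genes do not.

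Other states that can drive CCN1 and CCN2 were read beside them. A list of 10 immediate early genes, which respond to serum as CCN1 and CCN2 do, summed to 234, 267 and 231 CPM with VEZF1-WT and 259.7, 254 and 231 CPM with VEZF1-2A. Genes of the actin, MRTF and SRF pathway (8 genes) summed to 616, 667 and 539.8 CPM with VEZF1-WT and 644, 611 and 563 CPM with VEZF1-2A. Both sums were highest in the second VEZF1-WT library, as were CCN1 and ANKRD1, and lowest or tied for lowest in the third VEZF1-WT library. The first sum came mostly from JUN (99.8 to 127 CPM) and KLF6 (78.3 to 88.9 CPM), the second from TPM1 (336 to 449 CPM). FOS, JUN, IER2, KLF6, VCL, SRF and TPM1 were themselves highest in the second VEZF1-WT library. The remaining genes of both lists were highest elsewhere, and CNN1 and MYL9 were lowest in the second VEZF1-WT library. The part of either state in the levels of CCN1, CCN2 and ANKRD1 was not tested. Of 11067 genes with a mean of at least 5 CPM, the pattern over 6 libraries closest to CCN1 was that of GTF2H5, at a root-mean-square difference of 0.038 log2 units, then RFFL (0.042) and LPIN3 (0.055), whereas CCN2 stood at 0.192. Closest to CCN2 were SLC26A6 (0.012), ZRANB3 (0.017) and CYC1 (0.017). For scale, the root-mean-square deviation from the gene's own mean was 0.153 log2 units for CCN1 and only 0.071 for CCN2. The difference of 0.192 between them was thus larger than the spread of either. Whether these likenesses mean shared control was not tested.

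A wider list of 42 pathway genes, chosen by role, gave 37 that could be tested. With edgeR 0 of 37 passed the adjusted threshold, and 0 were higher and 0 lower in VEZF1-WT at an unadjusted p under 0.05, where 0.832% and 1.3% of all genes were. The median log2 fold change was 0.00, with a range from -0.53 to 0.50, and 20 genes lay above and 17 below 0. By role, the medians were 0.02 over 14 upstream regulators and kinases, 0.01 over 10 partners of YAP and TEAD and TEAD paralogs, and -0.04 over 15 further targets, with AMOTL1 and PTPN14 in 2 roles. DCHS1, VGLL1, VGLL3, FOXF2 and RBMS3 had too few counts to be tested. Of the 37, 15 share exon positions with other genes, MOB1B, TEAD2, VGLL4 and ARHGEF17 among them. The overlapping gene with the most counts stood at 126% of the count of MOB1B, 79.8% of VGLL4, 40.9% of TEAD2 and 5.51% of ARHGEF17. Whether such overlaps affect the levels of these genes, and the shares of the TEAD family, was not tested. Groups of libraries separated for 2 of 37, against 7.35% of all genes.

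**Figure D4:**
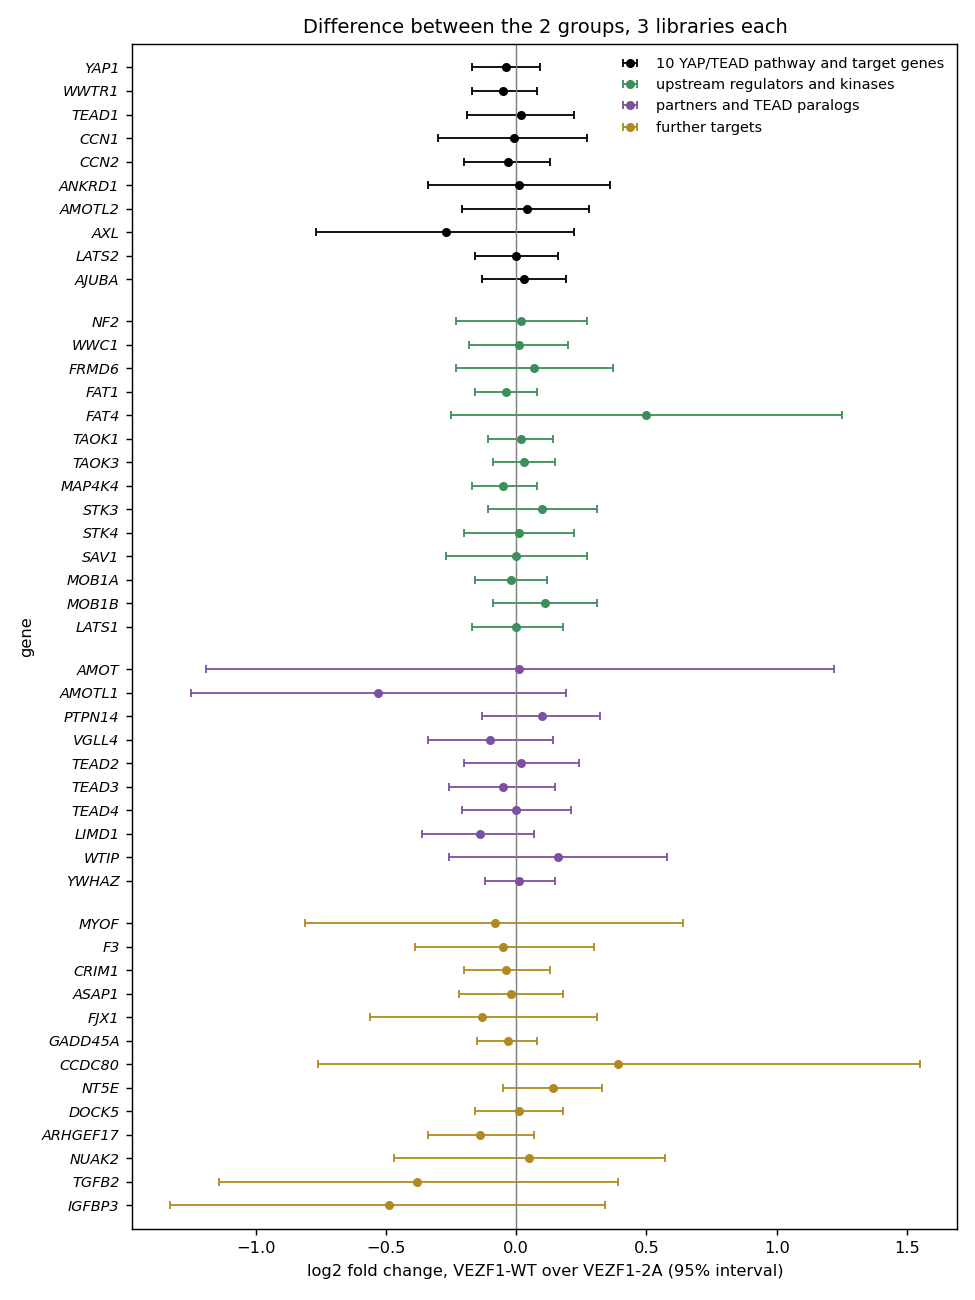
Log2 fold change of VEZF1-WT over VEZF1-2A for the 10 genes and for the 37 tested genes of the wider list, AMOTL1 and PTPN14 drawn once, with bars for the 95% interval of edgeR's fit. Every interval includes 0, and the bars are widest for genes of low level such as AMOT.

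Upstream, NF2, whose protein merlin activates LATS at the membrane, was 61.1, 69.3 and 52.5 CPM with VEZF1-WT and 66.4, 62.0 and 51.3 CPM with VEZF1-2A. Replicate 3 of both groups was lowest, and the log2 fold change was 0.02 (SE 0.11). The kinase genes differed widely in level. In this pair STK4 was 148 to 183 CPM with VEZF1-WT and 148 to 185 CPM with VEZF1-2A, and STK3 was 13.7 to 14.7 and 11.7 to 14.2 CPM, so that STK4 took 94.4% of the summed level per kilobase of the pair. STK3 had a log2 fold change of 0.10 (95% interval -0.11 to 0.31) and STK4 one of 0.01. LATS1 was never below 14.2 CPM, and its log2 fold change was 0.00 (SE 0.08). The upstream genes with the highest level per kilobase were MAP4K4, a kinase that can act in parallel to MST1 and MST2, at 181 CPM per kilobase and a log2 fold change of -0.05, and FAT1, a giant cadherin, at 24.6 CPM per kilobase and -0.04.

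Among partners, TEAD2, TEAD3 and TEAD4 had log2 fold changes of 0.02, -0.05 and 0.00 (SE 0.10, 0.09 and 0.10), and no TEAD gene left the range of 12.9 to 20.3 CPM in any library. VGLL4, which competes with YAP for TEAD, was 11.5 to 12.2 CPM with VEZF1-WT and 10.8 to 13.8 CPM with VEZF1-2A, with a log2 fold change of -0.10 (SE 0.11). AMOT stood out by library and not by group. It was 0.465, 0.449 and 1.49 CPM with VEZF1-WT and 0.412, 0.6 and 1.45 CPM with VEZF1-2A, highest in replicate 3 of both groups, and its log2 fold change was 0.01 with an interval from -1.19 to 1.22. AMOTL1 was 0.507, 1.01 and 0.603 CPM with VEZF1-WT and 0.755, 1.15 and 1.09 CPM with VEZF1-2A, and its log2 fold change was -0.53 (SE 0.32, edgeR unadjusted p = 0.13). Without the second VEZF1-WT library that value was -0.85 (edgeR unadjusted p = 0.0271, adjusted p = 0.9990). YWHAZ, a 14-3-3 protein of the family that holds phosphorylated YAP in the cytoplasm, was 388 to 428 CPM over all libraries, with a log2 fold change of 0.01. WTIP, a LIM protein related to AJUBA, was named after its values were seen, as 1 of the 2 genes with separate groups, at 1.46 to 1.56 CPM with VEZF1-WT and 1.3 to 1.45 CPM with VEZF1-2A (log2 fold change 0.16, edgeR unadjusted p = 0.425).

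Further targets gave small differences where levels were high. GADD45A, a growth arrest gene, was 132 to 136 CPM with VEZF1-WT and 135 to 139 CPM with VEZF1-2A (log2 fold change -0.03, SE 0.05), and CRIM1, a membrane protein that binds BMPs, was 84.5 to 102 CPM over all libraries (-0.04). ARHGEF17 was the other gene with separate groups, at 8.62 to 9.35 CPM with VEZF1-WT and 9.85 to 10.1 CPM with VEZF1-2A, for a log2 fold change of -0.14 (SE 0.09, edgeR unadjusted p = 0.164). MYOF, a membrane repair protein, was also named after its values were seen. It was 54.5, 65.6 and 26.6 CPM with VEZF1-WT and 69.2, 56.4 and 29.3 CPM with VEZF1-2A, so that the third library of either group lay below all others. Its log2 fold change was -0.08 (95% interval -0.81 to 0.64), and its biological coefficient of variation was 27.8%, against 7.6% on the trend. Replicate 3 of both groups gave the lowest 2 values in 11 of the 37 genes (29.7%) and in 3 of the 10 (30.0%), namely YAP1, ANKRD1 and AXL, against 15.3% of all genes tested.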

How the data were processed

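RNA-seq libraries of HepG2 cells re-expressing VEZF1-WT or VEZF1-2A were grouped by their labels, 3 libraries each. The authors deposited 1 table of raw counts per gene, as whole numbers without normalization, with gene positions and lengths. Libraries were prepared with a SMARTER mRNA-Seq kit, the submitters' processing notes name GRCh38, and the aligner, counting program, annotation and strand setting are not given in the sources used here. ChIP-seq was not analysed here. Of 59613 lines, 5 broken lines of ANK2 were left out. Totals ranged from 28756765 to 57199396 counts, and from 65.72 to 67.55% of the counts between 11 and 100 were even, so counts may not be independent and every test rests on the spread between libraries. Same-group libraries differed beyond sampling noise, with a chi-square per degree of freedom of 3.74 to 15.03 on halved counts, so none was merged.

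Analysis of the counts used edgeR 4.0.16 (R 4.3.3). After filterByExpr (minimum count 10, minimum total 15) 19111 genes remained. TMM factors were applied, and the quasi-likelihood functions glmQLFit and glmQLFTest with group alone gave two-sided p-values, adjusted by Benjamini-Hochberg over all genes tested. Log2 fold changes are VEZF1-WT over VEZF1-2A (prior count 0.125), with 95% intervals. Alternatives used DESeq2 1.42.0, limma 3.58.1 (voom), other scaling, no filter, halved counts, a replicate block, single libraries left out in turn, genes with overlapping exons left out, and 2 settings added after seeing the data: replicate 3 of both groups left out, and a proliferation covariate. Scripts were tested on simulated data.

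All 10 genes were named. Of the wider list, 10 were always named (TEAD2, TEAD3, TEAD4, LATS1, STK3, STK4, NF2, AMOT, AMOTL1 and VGLL4), with any at an unadjusted p under 0.05 and the 2 with the highest level per length in each role. The members and all lists were chosen with earlier results of these data known.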

Additional observations from a re-analysis of the deposited data

How the results depend on the processing

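None of the 10 genes passed the adjusted threshold under any alternative. Genes of the whole table past it numbered 0 as reported, 16 with no filter on low counts, 3 with DESeq2's test, 6 with the replicate block and 4 without replicate 3 of both groups. Whether replicate numbers pair the samples was not settled. Deviations from the group means were compared across genes, which are not independent replicates. They correlated at 0.079, 0.144 and 0.362 for replicates 1, 2 and 3. The third VEZF1-WT library correlated at -0.232 and -0.175 with the first and second VEZF1-2A libraries. By contrast, the second VEZF1-WT library correlated best with the first VEZF1-2A library (0.164). At an unadjusted p under 0.05, 1 of the 10 genes, AXL each time, was counted with no filter (log2 fold change -0.26), with the replicate block (-0.25) and without replicate 3 of both groups (-0.32), where all genes gave 896 of 38745, 825 of 19111 and 833 of 19360, against 408 of 19111 as reported. The count was 0 to 1 of the 10 genes when 1 library was left out, where all genes gave 292 to 973. The wider list gave 0 to 1 when 1 library was left out. YAP1 and WWTR1 kept their sign in every alternative that gave them a value. Some other signs turned. With 1 library left out in turn, log2 fold changes ran from -0.03 to 0.09 for TEAD1, -0.17 to 0.06 for CCN1, -0.09 to 0.01 for CCN2, -0.19 to 0.18 for ANKRD1, -0.08 to 0.10 for AMOTL2, -0.02 to 0.03 for LATS2 and for LATS1, -0.01 to 0.11 for AJUBA, -0.06 to 0.24 for VEZF1, -0.08 to 0.12 for NF2, -0.07 to 0.09 for STK4, -0.84 to 0.68 for AMOT, -0.07 to 0.08 for TEAD2, -0.12 to 0.00 for TEAD3, -0.08 to 0.05 for TEAD4, -0.02 to 0.05 for YWHAZ, -0.08 to 0.04 for CRIM1 and -0.37 to 0.22 for MYOF. Without replicate 3 of both groups CCN1 was 0.02, LATS2 -0.02, AJUBA -0.01, AMOT -0.17 and CRIM1 0.01. With the proliferation covariate CCN1 was 0.04, AMOT -0.19, TEAD2 -0.02 and MYOF 0.13. Under the replicate block ANKRD1 was -0.01 and AMOT -0.05, with limma voom ANKRD1 was -0.02 and TEAD4 -0.01, and with DESeq2's test AMOT was -0.02. Scaling by library size alone gave 0.00 for LATS2, LATS1 and TEAD4, and halved counts gave 0.00 for TEAD4, with the sign turned before rounding. The cause was not tested. YAP1, WWTR1, CCN2, AMOTL2, AXL and AJUBA have no value with genes sharing exon positions left out, since they share some.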
